A study of Mus musculus with 8 samples.

Results

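Glycogen synthesis and breakdown were followed through 9 genes, listed by symbol with earlier results of these data known. Gyg, Ugp2, Gys2 and Gbe1 stand for synthesis, and Pygl, Phka2 and Phkb for breakdown. Ppp1r3b and Ppp1r3c stand for the targeting of protein phosphatase 1 to glycogen. The 9 genes are among the 18193 with a probe set of their own on the array. Their 17 probe sets are among the 34945 with a single gene symbol. Whole-liver RNA came from 5 POMCMfn2KO mice and 3 control mice (genotype WT), with 1 array per mouse. All 8 animals were 6 weeks old, were of mixed C57Bl/6J, FVB/N and 129 background, and had chow and water without restriction. In this line, as its name and the published work on it give it, the mitochondrial fusion gene Mfn2 is deleted by Cre under the Pomc promoter, so that the deletion is aimed at POMC neurons and not at the liver. The series concerns how those neurons affect hepatic glucose production, and the comparison asks which glycogen genes differ in the liver of these mice.

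Glycogen is the branched glucose polymer in which the liver stores sugar after a meal and from which it releases glucose between meals. Glucose 1-phosphate is activated to UDP-glucose, glycogenin starts a chain on itself, glycogen synthase lengthens the chain and the branching enzyme adds side chains. Phosphorylase removes glucose units, and it is switched on by phosphorylase kinase after glucagon or adrenaline, while protein phosphatase 1, held on the glycogen particle by targeting subunits, switches synthase on and phosphorylase off. Much of this control acts on the enzymes' phosphorylation and on allosteric ligands, which RNA levels do not show.

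The values are log2 RMA levels, so a difference of 1 is a doubling. The arrays' medians were 5.79 to 5.81. Mfn2 itself had 9.98, 9.37, 9.52, 9.68 and 9.48 in POMCMfn2KO 1 to 5, against 9.84, 9.83 and 9.97 in controls 1 to 3. The difference was -0.27 (unadjusted p = 0.0591 and adjusted p = 0.169 in limma), with 4 POMCMfn2KO values below every control and 1 above. The deletion is aimed at neurons, so this checks no label, and whether the liver gene is intact was not tested. All 8 hepatocyte markers lay above the filter for dim genes, with a mean log2 level of 13.31 to 13.64 in POMCMfn2KO and 13.34 to 13.35 in controls, and 1 of them, Cps1, rose. Of the 8 pancreatic acinar markers with a probe set none passed in limma and 0 had an unadjusted p under 0.05, but their mean log2 level was 11.03 and 11.18 in POMCMfn2KO 2 and 3, 6.61 to 6.95 in the other POMCMfn2KO arrays and 6.55 to 6.67 in controls. Summed on the linear scale, these markers ranged between 1182 and 20870 in POMCMfn2KO and between 1162 and 1197 in controls. Skeletal muscle markers, of which 5 of 8 were tested, none passed and 3 had an unadjusted p under 0.05, had a mean of 5.61 to 7.01 in POMCMfn2KO and 5.45 to 5.91 in controls, again highest in POMCMfn2KO 2 and 3. The part of these tissues in the results was not tested; values without POMCMfn2KO 2 and 3 stand beside each call of the 9 genes that is lost without them. RMA levels have no zero, and in whole liver fewer cells of a type and less RNA per cell cannot be told apart.

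Of the 9 genes, 4 fell in POMCMfn2KO liver and none rose: Gbe1, Gyg and Ugp2, which act in synthesis, and Phka2, a regulatory subunit of the kinase that starts breakdown. Each gene was represented here by its brightest probe set, and fell or rose means an adjusted p under 0.05 in limma, adjusted over all 11986 genes tested. All 9 genes lay above the filter that left out dim genes. Over all genes tested, 10.9% fell and 7.02% rose by the same rule, and the median difference was -0.02, against -0.41 for the 9 genes. The same 4 genes had every POMCMfn2KO value below every control value, which held for 16.5% of all genes tested. At an unadjusted p under 0.05 the counts were again 4 down and 0 up. The share of all genes at this looser threshold is not given here and cannot be below the adjusted one. Of the 5 that did not pass, Ppp1r3b, Ppp1r3c, Phkb and Pygl had negative differences and Gys2 a positive one. With single arrays left out, 1 gene fell without control 1 or 3, 2 without control 2, 3 without POMCMfn2KO 2, 6 without POMCMfn2KO 4, and 1, Phka2, without POMCMfn2KO 2 and 3 together. The shares of all genes that fell in these fits are not given here, so the counts stand without a comparison.

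**Figure D1:**
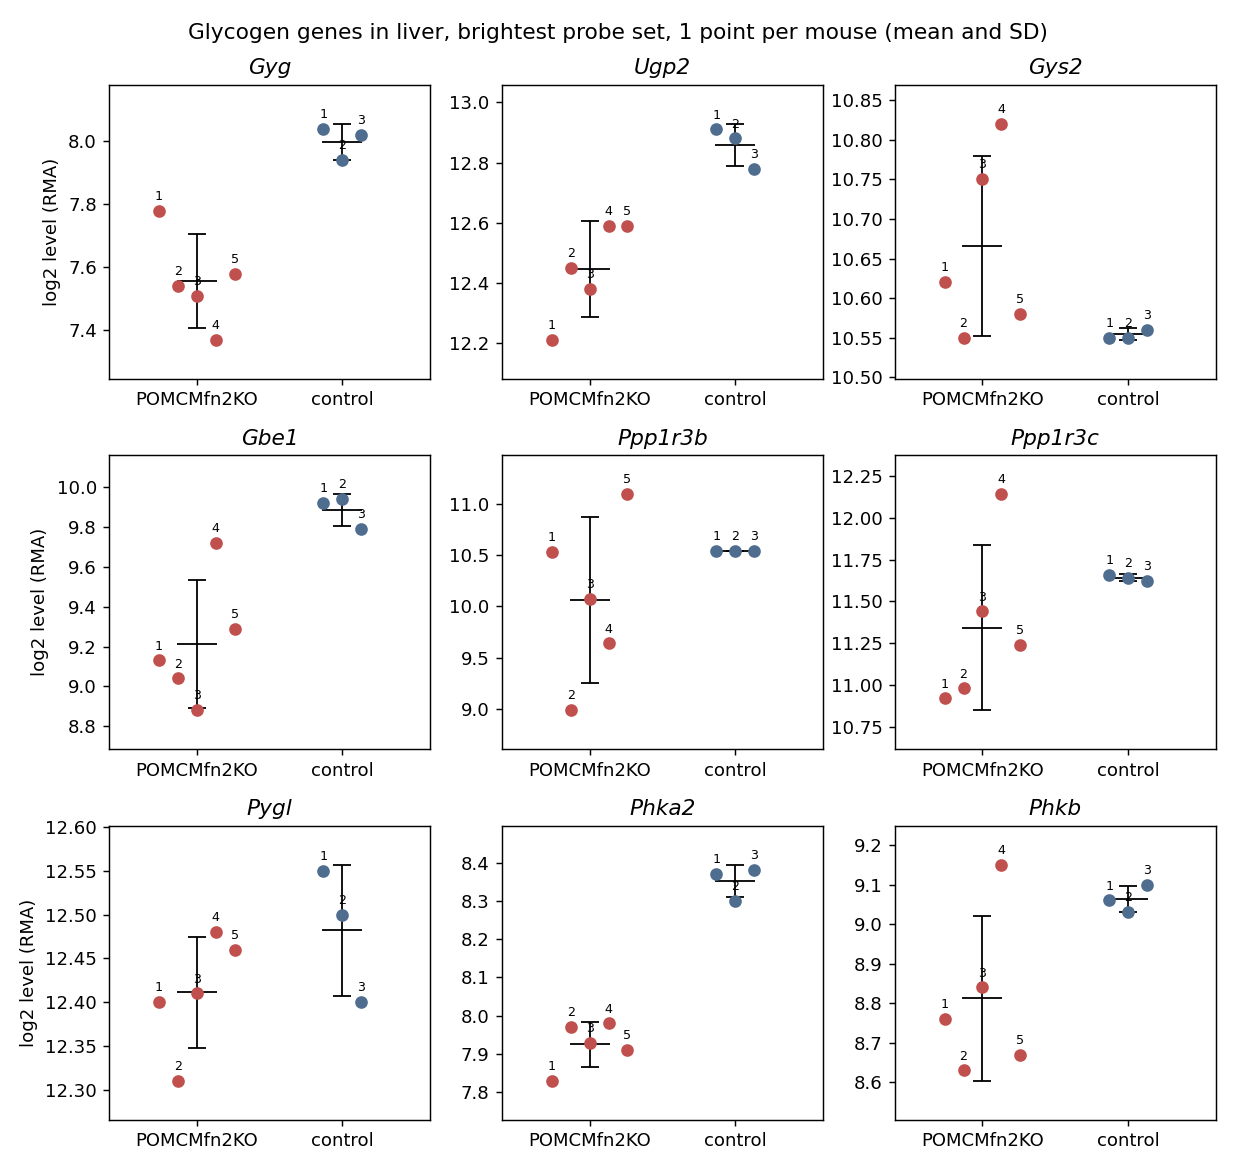
Log2 RMA level (y axis, a separate range for each gene) of the brightest probe set of the 9 glycogen genes, with 1 numbered point per mouse, POMCMfn2KO on the left and control on the right; black bars give the mean and SD (n = 5 and n = 3). The groups do not overlap for Gyg, Ugp2, Gbe1 and Phka2, whereas the POMCMfn2KO values of Ppp1r3b and Ppp1r3c lie on both sides of the controls.

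Glycogenin, the protein on which a new glycogen chain is begun, is encoded by Gyg. Its brightest probe set read 7.78, 7.54, 7.51, 7.37 and 7.58 in POMCMfn2KO 1 to 5, against 8.04, 7.94 and 8.02 in controls 1 to 3. All POMCMfn2KO values were lower than all control values, and the lowest was that of POMCMfn2KO 4. The mean was 7.56 ± 0.15 in POMCMfn2KO and 7.999 ± 0.057 in control (SD, n = 5 and n = 3), a difference of -0.44 ± 0.09 (SE) or 0.736 times the control level (adjusted p = 0.0114). The second probe set had 7.75, 7.46, 7.38, 7.45 and 7.52 in POMCMfn2KO, against 7.97, 7.93 and 8.03 in controls, and fell by 0.46 (adjusted p = 0.0102 over all probe sets). On both probe sets POMCMfn2KO 1 was nearest to the controls. In the fit over probe sets both lost the call without control 1 or control 3 (adjusted p up to 0.0698 and 0.0540) and without POMCMfn2KO 2 and 3 together (0.0884 and 0.0714), with differences that stayed between -0.53 and -0.39 when single arrays were left out.

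Ugp2 encodes UDP-glucose pyrophosphorylase, which makes the activated glucose that synthase adds to the chain, and it had the most probe sets of the 9 genes, 5. The brightest read 12.21, 12.45, 12.38, 12.59 and 12.59 in POMCMfn2KO 1 to 5, against 12.91, 12.88 and 12.78 in controls 1 to 3, a difference of -0.41 ± 0.09 (SE; adjusted p = 0.0182). The other 4 probe sets differed by -0.46, -0.50, -0.63 and -0.72, and on each of the 5 every POMCMfn2KO value lay below every control. In order of signal, brightest first, the differences grew at each step. The dimmest of the 5 had 9.37, 9.12, 9.08, 9.58 and 9.21 in POMCMfn2KO, against 9.99, 10.01 and 9.97 in controls, which is 0.608 times the control level (adjusted p = 0.00450 over all probe sets). The POMCMfn2KO mice were not ordered alike on all 5: POMCMfn2KO 1 was lowest or level with the lowest on the 3 brightest and second highest on the 2 dimmest. The call of the brightest probe set was lost without any single control (adjusted p up to 0.0832 in the gene fit) and without POMCMfn2KO 2 and 3 (0.10). In the fit over probe sets the brightest was also lost without POMCMfn2KO 3, whereas the other 4 kept their calls without each of the 8 arrays in turn, with adjusted p up to 0.0440, 0.0348, 0.0370 and 0.0292. Without POMCMfn2KO 2 and 3 these 4 gave 0.0547, 0.0449, 0.0486 and 0.0297. The probe set that gave 0.0547 is of a kind whose probes can bind related transcripts.

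The branching enzyme is encoded by Gbe1, whose loss in people causes a glycogen storage disease with poorly branched glycogen. Its only probe set read 9.13, 9.04, 8.88, 9.72 and 9.29 in POMCMfn2KO 1 to 5, against 9.92, 9.94 and 9.79 in controls 1 to 3. The fall was uneven: POMCMfn2KO 4 lay just under the lowest control, and POMCMfn2KO 3 was 1.00 below the control mean. The group means were 9.21 ± 0.32 in POMCMfn2KO and 9.88 ± 0.08 in control (SD, n = 5 and n = 3), a difference of -0.67 ± 0.16 (SE) or 0.628 times the control level (adjusted p = 0.0233). It was the largest difference among the 9 genes by their brightest probe sets. The call was lost without control 1, 2 or 3 (adjusted p = 0.0903, 0.0931 and 0.0674), without POMCMfn2KO 2 (0.0533), and without POMCMfn2KO 2 and 3 together, where the difference was -0.50 (0.10).

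Gys2, the liver form of glycogen synthase, was the only one of the 4 synthesis genes that did not pass. It read 10.62, 10.55, 10.75, 10.82 and 10.58 in POMCMfn2KO 1 to 5, against 10.55, 10.55 and 10.56 in controls 1 to 3. The controls lay within 0.02 of each other, 4 of 5 POMCMfn2KO values were above them, and the groups overlapped through POMCMfn2KO 2. The difference was 0.11 with a 95% interval from -0.06 to 0.28 (adjusted p = 0.338), and it stayed positive in all 18 alternatives (0.07 to 0.15).

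The targeting subunits of protein phosphatase 1 were the most variable of the 9 genes among the POMCMfn2KO mice. Ppp1r3b encodes GL, the liver subunit that binds the phosphatase to glycogen. It read 10.53, 8.99, 10.07, 9.64 and 11.09 in POMCMfn2KO 1 to 5, against 10.54 in each of controls 1 to 3. POMCMfn2KO 2 was lowest, POMCMfn2KO 5 was above all controls and POMCMfn2KO 1 level with them, so the SD was 0.81 in POMCMfn2KO (n = 5) and 0.002 in control (n = 3). The difference of -0.48 had a 95% interval from -1.35 to 0.40 (adjusted p = 0.434) and ranged between -0.73 and -0.12 over the alternatives, -0.21 without POMCMfn2KO 2 and -0.12 without POMCMfn2KO 2 and 3.

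Ppp1r3c encodes PTG, a second scaffold that brings the phosphatase to synthase and phosphorylase. Its brighter probe set read 10.92, 10.98, 11.44, 12.14 and 11.24 in POMCMfn2KO 1 to 5, against 11.66, 11.64 and 11.62 in controls 1 to 3. Here 4 POMCMfn2KO mice were below all controls and POMCMfn2KO 4 was above them. The difference was -0.30 with a 95% interval from -0.84 to 0.24 (adjusted p = 0.427), and it was -0.50 without POMCMfn2KO 4, where the gene passed (adjusted p = 0.0221). The dimmer probe set had 7.73, 8.11, 8.69, 9.71 and 8.69 in POMCMfn2KO, against 8.58, 8.92 and 8.74 in controls, with the same mice lowest and highest, and it did not pass with or without POMCMfn2KO 4 (adjusted p = 0.809 and 0.219). Its difference was -0.16 with all arrays, 0.06 without POMCMfn2KO 1, and -0.04 without POMCMfn2KO 2 or without POMCMfn2KO 2 and 3. Beside this, POMCMfn2KO 4 also had the highest mean of the erythroid markers (6.45, against 5.70 to 5.92 in the other POMCMfn2KO mice and 5.87 to 5.92 in controls). Of the 3 markers this was Alas2 alone (10.20, against 7.78 to 8.12 in the other POMCMfn2KO mice and 8.15 to 8.20 in controls). Hba-a1 (4.38) and Slc4a1 (4.78) lay below the filter and were not raised. POMCMfn2KO 4 had the highest mean of the adipocyte markers too (5.95). The other POMCMfn2KO mice had 5.25 to 5.59 and controls 5.46 to 5.57. Adipoq, below the filter, read 6.46 in POMCMfn2KO 4, against 4.85 to 5.44 in the others and 5.17 to 5.37 in controls. The part of these markers in the result was not tested.

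Among the breakdown genes the regulatory subunit gene Phka2 fell and the enzyme gene Pygl did not pass. Phka2, on the X chromosome, encodes the liver alpha subunit of phosphorylase kinase, which holds the kinase back until it is phosphorylated itself. Its brightest probe set read 7.83, 7.97, 7.93, 7.98 and 7.91 in POMCMfn2KO 1 to 5, against 8.37, 8.30 and 8.38 in controls 1 to 3. The POMCMfn2KO values were close together and clear of the controls, and the difference was -0.43 ± 0.06 (SE), 0.744 times the control level (adjusted p = 0.00262). Leaving out any single array kept the call (adjusted p up to 0.0210), as did leaving out POMCMfn2KO 2 and 3 together (0.0241). Other Phka2 probe sets did not show the fall. One, with a mean of 5.81 against the filter of 5.80, had 5.86, 5.95, 5.63, 5.93 and 5.73 in POMCMfn2KO and 5.79, 5.95 and 5.68 in controls (difference 0.01, 95% interval -0.21 to 0.23), and the third lay below the filter at 4.57 ± 0.26 in POMCMfn2KO and 4.68 ± 0.13 in control (SD, n = 5 and n = 3). With the mean of all 3 probe sets in place of the brightest, the difference was -0.18 and Phka2 did not pass (adjusted p = 0.113).

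Phkb encodes the beta subunit of the same kinase. It read 8.76, 8.63, 8.84, 9.15 and 8.67 in POMCMfn2KO 1 to 5, against 9.06, 9.03 and 9.10 in controls 1 to 3. As with Ppp1r3c, 4 POMCMfn2KO mice lay below all controls and POMCMfn2KO 4 above them, and the difference of -0.25 (95% interval -0.50 to 0.003) did not pass (adjusted p = 0.155). Without POMCMfn2KO 4 it was -0.34 and passed (adjusted p = 0.0115).

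Pygl, the liver glycogen phosphorylase that releases glucose 1-phosphate from the chain, read 12.40, 12.31, 12.41, 12.48 and 12.46 in POMCMfn2KO 1 to 5, against 12.55, 12.50 and 12.40 in controls 1 to 3. The groups overlapped. The difference was -0.07. Its 95% interval from -0.22 to 0.07 was the narrowest but one among the 9 genes (adjusted p = 0.487). Leaving out control 1 gave -0.04, control 3 -0.11, POMCMfn2KO 2 -0.05, and POMCMfn2KO 2 with 3 -0.04, and the gene passed in none of these.

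Over all probe sets of the 9 genes, 16 of 17 lay above the filter, 9 fell and none rose. Among the 22519 probe sets tested, 8.47% fell and 6.86% rose. At an unadjusted p under 0.05 the counts were also 9 and 0, with no share over all probe sets given. The 9 are not independent, since 5 belong to Ugp2 and 2 to Gyg. Their median difference was -0.43 over the 16 tested, against 0.00 over all probe sets tested. For each gene with more than 1 probe set above the filter, the difference of a further probe set was set against that of the brightest, array by array, in an exact permutation test (2-sided, 7 pairs, smallest possible p = 0.0179). A single discordant pair can therefore reach an adjusted p no lower than 0.125, so that a gene with 1 pair could not pass alone. The several pairs of Ugp2 could have passed together. In the adjusted test 0 of the 7 pairs passed, and 1 had an unadjusted p under 0.05. That pair was Phka2, where the dim probe set changed by 0.44 less than the bright one (exact p = 0.0179, adjusted p = 0.125). For Gyg the probe sets differed by -0.02 (exact p = 0.679), for Ppp1r3c by 0.14 (exact p = 0.518), and for Ugp2 the further probe sets fell by 0.05, 0.09, 0.21 and 0.31 more than the brightest (exact p = 0.232, 0.107, 0.232 and 0.0714; adjusted p at least 0.250). The number of probe sets that fell was 5 without control 1 or 3 and 4 without POMCMfn2KO 2 and 3. No share over all probe sets is given for these fits.

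**Figure D2:**
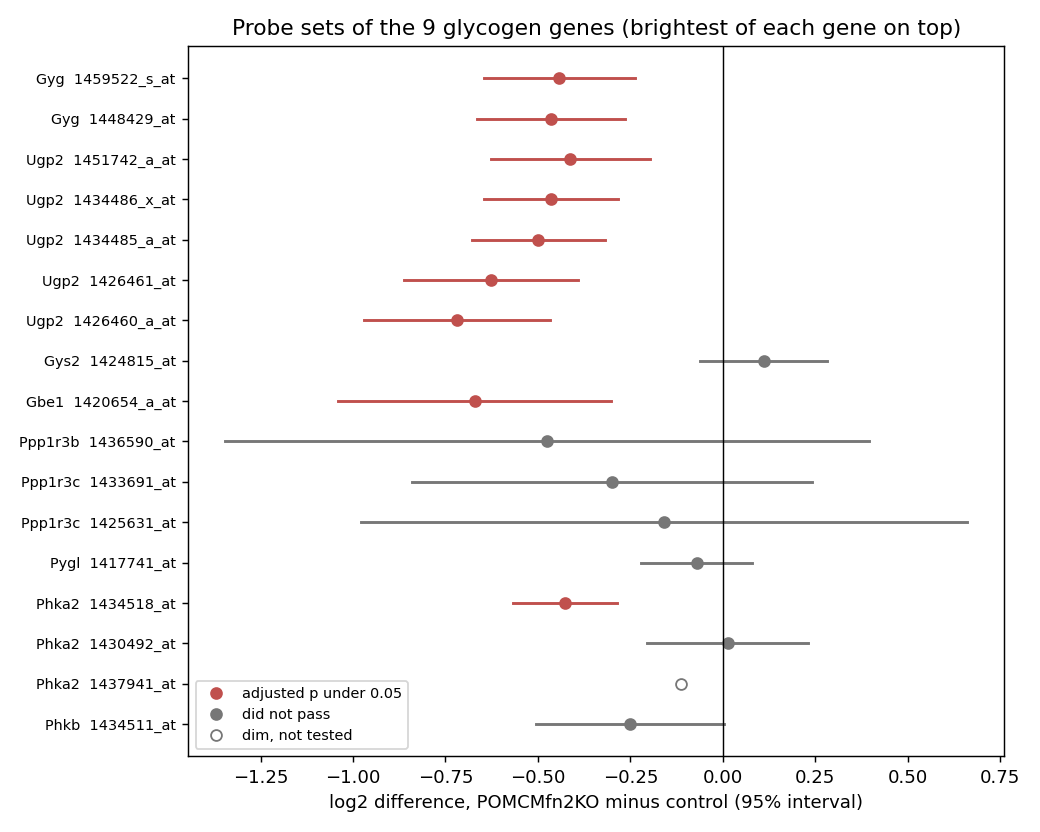
Log2 difference between POMCMfn2KO and control (x axis, with 95% intervals from limma) for the 17 probe sets of the 9 genes (y axis, probe sets of a gene together, brightest first); red points passed, grey points did not, and the open point was below the filter and not tested. The 5 Ugp2 and 2 Gyg probe sets lie between -0.41 and -0.72, while the 3 Phka2 probe sets part, at -0.43, 0.01 and -0.11.

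The DNA just before a RefSeq start of the genes that fell is shown because all 4 were lower in POMCMfn2KO, although not in step from mouse to mouse, with Ppp1r3c beside them as a gene whose level varied between the POMCMfn2KO mice. RefSeq promoters (GRCm38.p6) were at hand for 7 of the 9 genes, and the 150 bases before the start were searched on both strands for 5 short motifs: the E-box CACGTG, bound by CLOCK with BMAL1 and by USF factors; TGACG, the core of the cyclic AMP response element; the FOXO core TGTTTAC; the D-box TTATGTAA of the DBP family; and the CCAAT box. For Phka2 the annotated gene begins further upstream, so this window lies inside the gene, before a later start. Most of the Phkb window, which is not printed, likewise lies inside its annotated gene. Such motifs can share bases, but no matches here overlap. Capitals mark the matches, which on the reverse strand read as the reverse complement. The regions are chr16:70313799-70313948, plus strand for Gbe1; chr3:20155117-20155266, minus strand for Gyg; chr11:21371268-21371417, minus strand for the upstream of the 2 Ugp2 starts; chrX:160502012-160502161, plus strand for Phka2; and chr19:36736605-36736754, minus strand for Ppp1r3c.
Gbe1: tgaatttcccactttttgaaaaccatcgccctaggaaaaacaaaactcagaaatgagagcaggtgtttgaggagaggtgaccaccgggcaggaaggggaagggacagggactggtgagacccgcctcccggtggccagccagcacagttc
Gyg: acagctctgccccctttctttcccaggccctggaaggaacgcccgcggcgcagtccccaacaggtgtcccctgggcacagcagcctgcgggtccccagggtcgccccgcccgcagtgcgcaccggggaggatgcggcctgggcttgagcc
Ugp2: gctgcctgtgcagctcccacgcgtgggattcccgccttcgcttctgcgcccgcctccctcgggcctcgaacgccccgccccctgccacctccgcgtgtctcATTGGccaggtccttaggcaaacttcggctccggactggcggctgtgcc
Phka2: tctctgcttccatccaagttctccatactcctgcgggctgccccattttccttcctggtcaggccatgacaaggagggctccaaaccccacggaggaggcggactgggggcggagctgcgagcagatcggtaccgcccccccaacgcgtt
Ppp1r3c: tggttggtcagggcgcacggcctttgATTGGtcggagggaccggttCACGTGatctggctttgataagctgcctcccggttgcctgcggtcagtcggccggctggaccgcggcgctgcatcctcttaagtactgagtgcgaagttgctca

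No match to any of the 5 motifs was found in the windows of Gbe1, Gyg and Phka2, and the Ugp2 window held 1 CCAAT box, on the reverse strand 49 to 45 bases before the start. Ppp1r3c held an E-box 104 to 99 bases before its start and a CCAAT box, on the reverse strand, 124 to 120 bases before it. The Pygl window held 1 TGACG, on the reverse strand, 44 to 40 bases before the start, and those of Phkb and of the downstream Ugp2 start held no match. Among all 32851 promoter windows of the same length, 4.30% held the E-box, 13.3% TGACG, 1.80% the FOXO core, 0.499% the D-box and 24.5% the CCAAT box. A match in letters does not show binding, and a window without one says only that these letters are not in these bases.

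The 5 POMCMfn2KO mice did not depart from the controls by the same amount. POMCMfn2KO 4 stood nearest to the controls on Gbe1 (-0.16 from the control mean), was above them on Ppp1r3c (0.50) and Phkb (0.09), and yet was lowest on Gyg (-0.63) and far below on Ppp1r3b (-0.90). POMCMfn2KO 2 had the lowest Ppp1r3b (-1.55), Phkb (-0.44) and Pygl (-0.17) of the 5. Ppp1r3b and Ppp1r3c were highest in different mice. POMCMfn2KO 5 was highest on the first (0.55) and below the controls on the second (-0.40), and POMCMfn2KO 4 the other way round. POMCMfn2KO 2 (-1.55 and -0.67) and POMCMfn2KO 3 (-0.47 and -0.20) were below the control mean on both, and POMCMfn2KO 1 had -0.01 and -0.73. The correlation of the 2 genes was not computed. The median SD over all genes tested was 0.135 in POMCMfn2KO and 0.0686 in control, and 8 of the 9 genes had the larger SD in POMCMfn2KO, Pygl being the exception. The share of all genes tested with the larger SD in POMCMfn2KO is not given here, so this count is not particular to the 9 genes.

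**Figure D3:**
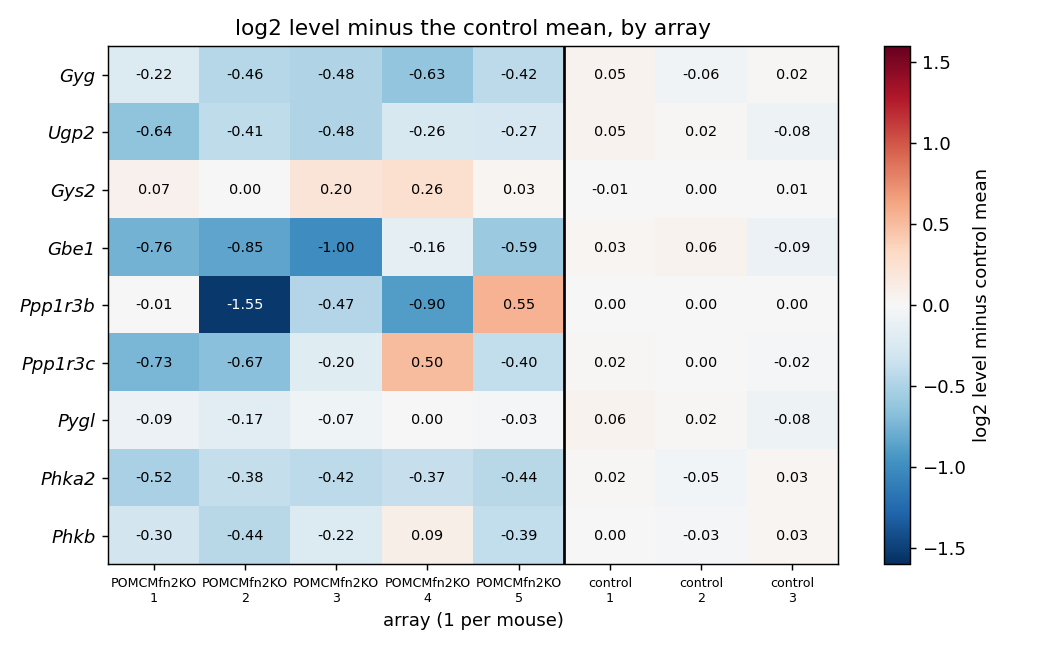
Log2 level minus the mean of the 3 controls (colour and printed number) for the 9 glycogen genes (rows) in each array (columns), 5 POMCMfn2KO mice left of the line and 3 controls right of it. Phka2 runs evenly between -0.52 and -0.37 in the POMCMfn2KO mice, whereas Ppp1r3b spans -1.55 to 0.55 and Ppp1r3c -0.73 to 0.50.

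Of 32 further genes of glycogen handling, 27 had a probe set of their own and 20 were tested; 3 fell and 2 rose, which is near the 10.9% and 7.02% over all genes. Their median difference was 0.01. Of the 2 that rose, Ppp1r3e lay above the filter only through its POMCMfn2KO values. Among 5 other enzymes of synthesis and breakdown none passed, and 1, Pgm1, had an unadjusted p under 0.05 in limma. Pgm1, named on the array as a phosphoglucomutase, which links glucose 1-phosphate and glucose 6-phosphate, had a difference of -0.20 (adjusted p = 0.137), while Gys1, the synthase of muscle and most other tissues, had -0.06, the brain phosphorylase Pygb 0.07 and the lysosomal glucosidase Gaa 0.08. The phosphorylase kinase genes Phka1 (0.02), the alpha subunit of muscle, and Phkg2 (0.01), the liver catalytic subunit, did not pass and had unadjusted p above 0.05. None of the 4 tested genes of glycogen synthase kinase 3 and glycogen quality control passed, at an unadjusted p under 0.05 either: Gsk3a (-0.05), Gsk3b (-0.06), the laforin gene Epm2a (0.06) and Stbd1 (-0.17), which ties glycogen to membranes.

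Of the 5 tested genes of protein phosphatase 1, the catalytic subunit gene Ppp1ca fell and the targeting subunit gene Ppp1r3e rose. Ppp1ca read 10.92, 10.84, 10.90, 11.15 and 10.86 in POMCMfn2KO 1 to 5, against 11.49, 11.40 and 11.49 in controls 1 to 3. The difference was -0.53 ± 0.08 (SE; adjusted p = 0.00368), and the call held in all 18 alternatives. The sister subunits Ppp1cb (0.11) and Ppp1cc (-0.24, adjusted p = 0.102) did not pass on their brightest probe sets. Of the dimmer Ppp1cb probe sets 1 rose by 0.32 (adjusted p = 0.0294 over all probe sets), and the others, at -0.05 and -0.0002, did not pass. The dimmer Ppp1cc probe set had every POMCMfn2KO value below every control but did not pass (-0.30, adjusted p = 0.0782 over all probe sets). Ppp1r3e had 6.44, 6.12, 6.28, 6.52 and 6.37 in POMCMfn2KO, against 5.49, 5.99 and 5.83 in controls, a difference of 0.58 ± 0.13 (SE; adjusted p = 0.0149). Its control mean of 5.77 lay under the filter of 5.80, so it entered the test only through its POMCMfn2KO values, and background limits this value. The call was lost without control 1 or 3 (adjusted p = 0.0642 and 0.0529).

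At the entry and exit of glucose the genes parted: Gckr and Slc2a2 fell and G6pc rose. Gckr, which encodes a regulatory protein of liver sugar metabolism, read 10.45, 10.61, 10.65, 11.07 and 10.84 in POMCMfn2KO 1 to 5, against 11.22, 11.33 and 11.29 in controls 1 to 3 (difference -0.56 ± 0.13, SE; adjusted p = 0.0171). Slc2a2, the glucose transporter of the hepatocyte membrane, differed by -0.58 (adjusted p = 0.0305). G6pc, whose product splits glucose 6-phosphate so that glucose can leave the cell, differed by 0.60 (adjusted p = 0.0128), and Slc37a4, which carries glucose 6-phosphate to it, by 0.46 without passing (adjusted p = 0.170). In POMCMfn2KO mice Slc37a4 lay above every control value, and POMCMfn2KO 1 was highest at 12.65. Gckr and G6pc lost their calls without any single control (adjusted p up to 0.0763 and 0.0598), and Slc2a2 without any single control, POMCMfn2KO 2 or POMCMfn2KO 5 (up to 0.112). Without POMCMfn2KO 2 and 3 together Gckr (0.102) and Slc2a2 (0.114) did not pass. Of the 20 genes, 1 fell when control 1, 2 or 3 was left out, and 0 rose without control 1 or 3. No share over all genes is given for these fits.

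**Figure D4:**
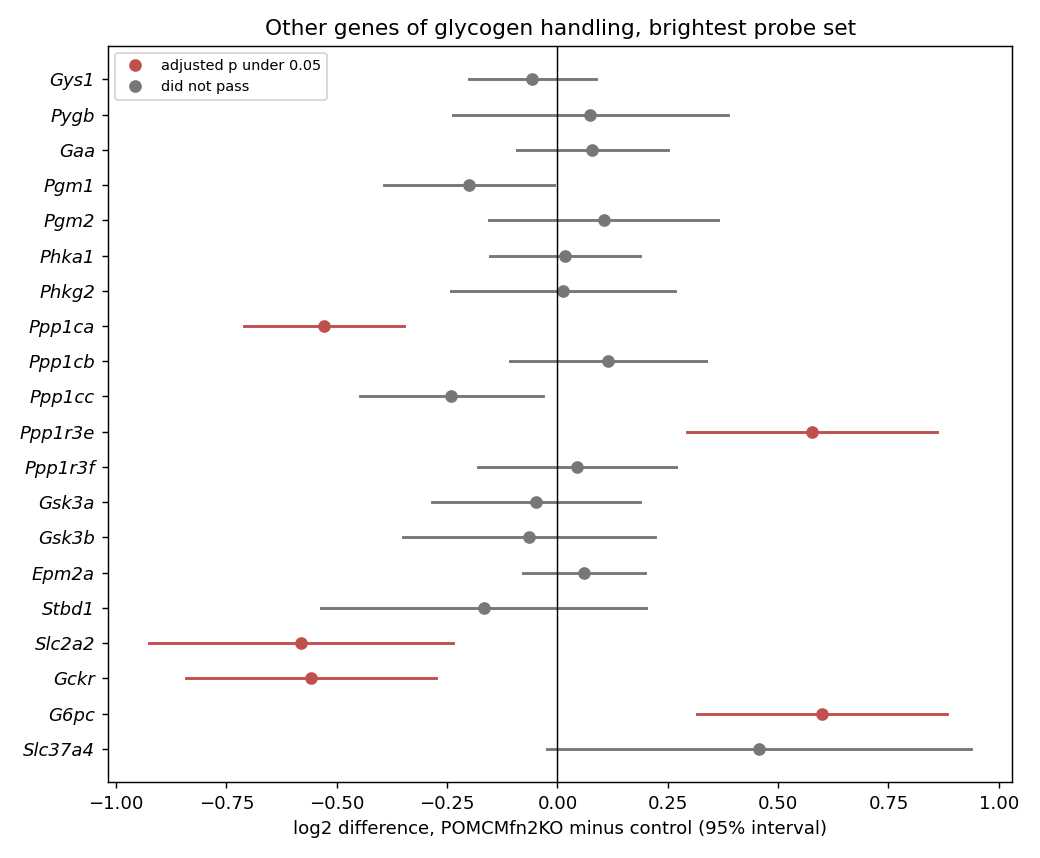
Log2 difference between POMCMfn2KO and control (x axis, with 95% intervals from limma) for the 20 tested genes of glycogen handling other than the 9 (y axis), each by its brightest probe set; red points passed and grey points did not. Ppp1ca, Slc2a2 and Gckr lie between -0.53 and -0.58, Ppp1r3e and G6pc at 0.58 and 0.60, and most others near 0.

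For each of the 4 genes that fell, the 3 genes with the nearest profile over the 8 arrays were found by the root mean square difference of the log2 level minus the control mean. For Gbe1 they were Rdh9 (root mean square difference 0.08), Cdk5rap1 (0.11) and Gstt1 (0.12). For Phka2 they were Inpp5k (0.04), Parp12 (0.04) and Ube2e2 (0.06). Gyg had Fam126a (0.05), Ralb (0.06) and Clasp2 (0.08), and Ugp2 had Txn1 (0.04), Slc35d1 (0.04) and Fuca1 (0.05). Slc35d1 encodes a transporter of UDP-sugars, Txn1 thioredoxin and Fuca1 a lysosomal fucosidase. That all 12 fell, by 0.39 to 0.77, follows from how they were chosen.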

How the data were processed

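Levels were measured on GeneChip arrays, 1 per mouse, in 5 POMCMfn2KO and 3 control livers. The authors deposited 1 log2 level for each probe set and array; RMA and the affy package are named in the submitters' processing notes. Their versions are not given in the sources used here. RMA shrinks differences of dim probe sets. Arrays have no depth, and precision is limited by how many there are. The labels call the arrays biological replicates and give no batch, sex, collection time or feeding state at collection. Glycogen genes can vary with the last 3 of these, which was not tested.

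Of 45101 probe sets, 64 were controls and 34945 had 1 gene symbol in the platform annotation. Each gene was represented by the probe set with the highest mean; those under 5.80, the median of non-control probe sets, were not tested, which left 11986 genes and 22519 probe sets. Tests were made with limma 3.58.1 in R 4.3.3 (2-sided, plain eBayes, difference taken as POMCMfn2KO minus control, Benjamini-Hochberg over all features, threshold 0.05). The procedure was also run on simulated data in which each gene had the same SD in both groups. The real POMCMfn2KO arrays spread more than the controls, so that run does not give the error rate in these data. Probe sets of 1 gene were compared by exact permutation over the 56 groupings of the arrays. The members, lists, motifs and alternatives were chosen with earlier results of these data known; named genes are all members, other listed genes that passed with up to 4 examples per list, and the 3 nearest profiles. Some listed genes are not reported here. Marker lists covered hepatocytes, pancreatic acini, skeletal muscle, adipocytes and erythroid cells; adipocyte markers averaged 5.25 to 5.95 in POMCMfn2KO and 5.46 to 5.57 in control, and the 1 tested adipocyte and the 1 tested erythroid gene did not pass. Figures were drawn with matplotlib 3.10.9.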

Additional observations from a re-analysis of the deposited data

Results flagged for a closer look

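In 6 of 52 probe sets and marker lists, 1 of the 5 POMCMfn2KO arrays stood apart from the other 4 by Dixon's criterion, which chance meets in about 1 of 20. POMCMfn2KO 4 was high on Pgm1 (11.57, next 11.29), on Ppp1ca (11.15, next 10.92) and on the mean of the erythroid markers (6.45, next 5.92), through Alas2 alone. POMCMfn2KO 5 was high on Pygb (6.66, next 6.20) and on 2 dim probe sets of Gsk3b (6.83, next 6.39, and 6.6, next 6.07). None of the 16 tested probe sets of the 9 glycogen genes met the criterion. The cause was not tested.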

How the results depend on the processing

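Across 18 alternatives none of the 9 genes changed the sign of its difference and none rose. Outside the arrays left out, the count of the 9 that fell was 1 at an adjusted p under 0.01, against 4, and that of their probe sets 5, against 9; without POMCMfn2KO arrays 2 and 3 the counts were 1 gene and 4 probe sets. Leaving out each array in turn gave 1 to 6 genes and 5 to 11 probe sets. Fewer arrays were fitted there, and the cause was not tested further. The shares of all features called are not given for the alternatives. Of the 20 other genes, 1 fell and 0 rose at an adjusted p under 0.01, 1 fell without POMCMfn2KO arrays 2 and 3, and 1 rose under the stricter filter, which leaves Ppp1r3e out. With single arrays left out 1 to 4 of them fell and 0 to 2 rose.

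Same-numbered arrays of the groups did not deviate together (correlations across genes of 0.04, 0.04 and -0.03). Whether they share more than a number cannot be told from these values, and the labels give no batch. With the replicate block 6 of the 9 genes fell, Phkb (adjusted p = 0.0442) and Ppp1r3c (0.0458) being added, with 11 probe sets, and 1 of the 20 other genes rose, Ppp1r3e being lost (0.0876). The shares of all genes and probe sets called with the replicate block are not given here, so these counts stand without a comparison. By construction this fit takes its difference from the 3 numbers that both groups share, so POMCMfn2KO 4 and 5 do not add to it. Median centring, quantile normalization, other variance models and no filter changed no count of the 9 genes, while averaging the probe sets of a gene left 3 that fell, Phka2 being lost. The agreement test between probe sets cannot pass for 1 pair alone, so its alternatives say nothing about stability for a gene with 1 pair. With fewer arrays its smallest possible p is larger still. Signal over background limits Phka2's dimmer probe sets and Ppp1r3e.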
